A study of Drosophila melanogaster with 6 samples.

Results

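The genes described here mark the blood cells (hemocytes) of Drosophila or carry out melanization, and were taken by name from the deposited count tables. They are Hml, Pxn, NimC1, eater, He, crq, srp, lz, PPO1 and PPO2, which makes 10 genes of the 16727 in the tables. All 10 had a row and all 10 passed the filter on low counts. Poly(A) RNA of whole second-instar larvae was sequenced in 3 wt and 3 CG1603PBac libraries, named as biological replicates in the labels. The wt group carries no further strain name in the labels. CG1603PBac larvae are homozygous for PBac[SAstopDSRed]LL06826, a PiggyBac insertion between exons of CG1603, which encodes a C2H2 zinc finger protein, and were picked as larvae without a fluorescent CyO, act-GFP balancer chromosome. The insertion stops translation before the full-length protein is made, and homozygotes arrest as second-instar larvae and die. The allele is 1 insertion line, so what is shared by its larvae cannot be told apart from the loss of CG1603 in these libraries.

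Larval hemocytes fall into several classes. Plasmatocytes are the most common ones and engulf bacteria and dying cells, crystal cells store the prophenoloxidases that start melanization at wounds, and lamellocytes appear when large foreign bodies such as wasp eggs have to be encapsulated. The GATA factor Serpent is needed for the whole lineage, and the RUNX factor Lozenge directs cells to the crystal cell fate. Plasmatocytes carry receptors of the Nimrod family (NimC1 and Eater), the CD36-like receptor Croquemort (crq) and the surface glycoprotein Hemese (He), and they secrete the clotting protein Hemolectin (Hml) and the matrix enzyme Peroxidasin (Pxn).

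In CG1603PBac larvae the crystal cell enzymes PPO1 and PPO2 were about 3-fold lower, the plasmatocyte receptor gene NimC1 was 2.44-fold higher, Pxn was 1.58-fold lower, and Hml was 1.35-fold higher but turned to −0.29 on the log2 scale when the general trend on exon length was removed. The other 5 genes, eater, He, crq, srp and lz, did not pass the test. Of the 10 genes, 3 were lower and 2 higher when edgeR's quasi-likelihood test was read at 0.05 after adjustment. Over all 11306 genes tested, 69.7% passed at that threshold (34.9% lower and 34.8% higher), so the 50.0% of the hemocyte genes that passed is not more than among genes at large. The median log2 fold change of the 10 genes was −0.33, and that of all genes tested was 0.06. With library totals only, the corresponding medians were 0.06 and 0.45. The CPM values (read counts relative to the TMM-scaled library total) did not overlap between the genotypes for 9 of the 10 genes, against 73.8% of all genes tested. In whole larvae, fewer cells of a type and less RNA per cell cannot be told apart.

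Gene counts summed to between 33377603 and 34883345 per wt library, which lies inside the range of the mutant libraries, from 27100927 to 36016914. Other properties moved with the genotype. Reads that did not align made up 8.39 to 9.09% of all reads in wt and 30.9 to 31.8% in CG1603PBac libraries, and their part in the results was not tested. The scaling matters as well, since the log2 fold change had a median over all genes of 0.06 with TMM and 0.45 with library totals only. The share of calls that were higher was 49.9% with TMM and 68.7% with library totals. CG1603 itself, whose gene-level count does not test the insertion, had 613, 493 and 571 counts in wt against 956, 999 and 1072 in the mutant.

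**Figure D1:**
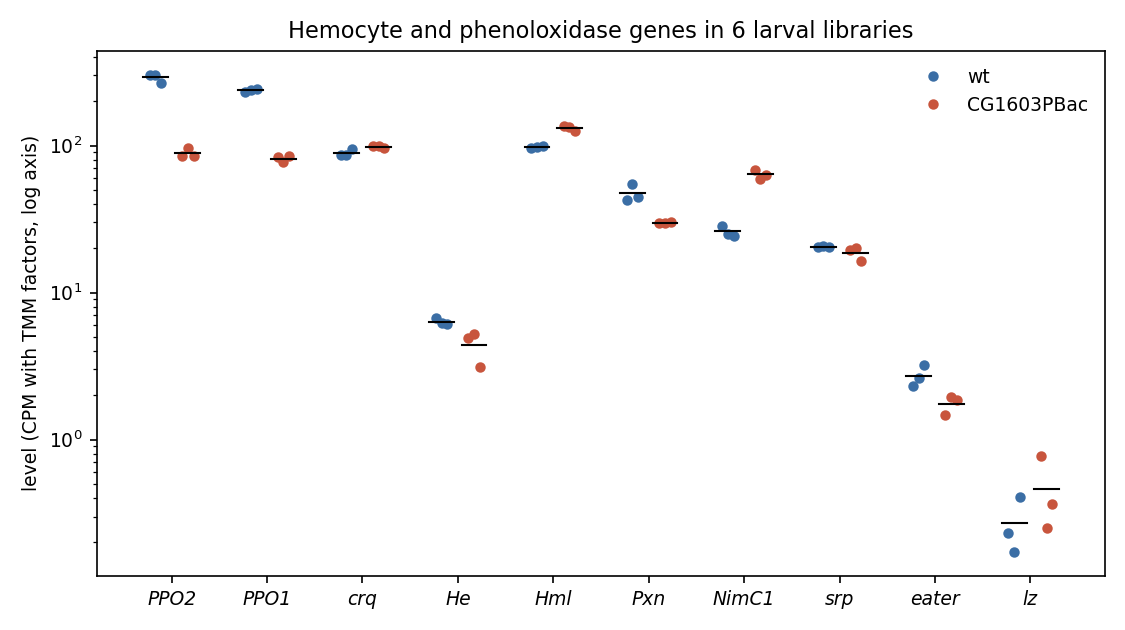
Level of each hemocyte and phenoloxidase gene in the 6 libraries, as CPM with TMM factors on a log axis. Points are libraries (blue wt, red CG1603PBac), black bars are means of 3 libraries, and genes are ordered by wt level per kb of exon. PPO1 and PPO2 sit between 231 and 304 CPM in wt and between 76.7 and 96.2 CPM in CG1603PBac larvae, and NimC1 lies higher in all 3 CG1603PBac libraries.

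The prophenoloxidase genes changed most among the lower genes. PPO1 and PPO2 encode the inactive precursors of phenoloxidase, the copper enzyme that oxidizes phenols into the quinones from which melanin forms. Both genes are characteristic of crystal cells. PPO1 lies on chromosome 2R of dm6, from 17887220 to 17889973 on the minus strand, and PPO2 from 9042261 to 9044709 on the same strand. The interrupted gene CG1603 is on this chromosome arm too, 1.53 Mb from PPO2 and 10.4 Mb from PPO1.

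PPO1 was at 231, 239 and 241 CPM in the wt libraries and at 83.3, 76.7 and 84.8 CPM in the CG1603PBac libraries. Every wt library was thus above every mutant one, by a gap far larger than the spread within either genotype. The log2 fold change was −1.54 (SE 0.06, adjusted p = 7.05e-16 from edgeR), which is 2.91-fold lower. PPO2 was at 301, 304 and 268 CPM in wt and at 85.4, 96.2 and 84.3 CPM in CG1603PBac libraries. Again the genotypes did not overlap, and the log2 fold change was −1.71 (SE 0.06, adjusted p = 6.50e-16 from edgeR), or 3.28-fold lower. With library totals only, the log2 fold changes were −1.15 for PPO1 and −1.32 for PPO2. Of the reads of all 10 genes, PPO1 and PPO2 took 63.5 to 65.1% in wt and 31.8 to 33.5% in CG1603PBac libraries.

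The direction of the crystal cell fate factor gene could not be resolved at this depth. lz (chromosome X, 9284649 to 9303636) had 7, 5 and 12 counts in wt and 24, 9 and 15 counts in CG1603PBac libraries. These few reads overlapped between the genotypes. The log2 fold change of lz was 0.76, with a 95% interval from −1.27 to 2.78 (adjusted p = 0.501 from edgeR). A 2-fold change of lz in either direction lies inside that interval, while the values of PPO1 (−1.54) and PPO2 (−1.71) lie below it. The ratio of lz to PPO1 counts was 4.74-fold higher in the mutant and that of lz to PPO2 counts 5.34-fold higher. Neither overlapped between the genotypes (exact permutation test, two-sided, p = 0.10, the smallest possible), but each rests on at most 24 reads of lz per library. Ratios of lz to Hml, Pxn, NimC1, He, crq and srp overlapped, and that to eater did not. Over all pairs of tested genes with a count in every library, 71.6% did not overlap, so these ratios give lz no direction.

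srp, the GATA factor gene of the hemocyte lineage and the fat body, did not pass the test. It lies on chromosome 3R from 15986152 to 16004085, and 16.1% of its exon sequence is shared with an annotated long non-coding RNA on the same strand (lncRNA:CR44133). srp was at 20.5, 20.7 and 20.5 CPM in wt and at 19.5, 20.1 and 16.5 CPM in CG1603PBac libraries. Most of the difference in the means came from the last of these mutant libraries. The log2 fold change of srp was −0.14 (95% interval −0.41 to 0.14, adjusted p = 0.363 from edgeR). With library totals its sign turned, to 0.26 (adjusted p = 0.0901). With the trend on exon length removed it was −0.55, so the value depends on scaling and no direction is given for srp.

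Among the plasmatocyte genes, NimC1 showed the clearest rise. NimC1 encodes a receptor through which plasmatocytes bind and engulf bacteria, and it is the antigen of the classical plasmatocyte antibody P1. The gene lies on chromosome 2L from 13973158 to 13976769 on the minus strand. NimC1 was at 28.6, 25.2 and 24.4 CPM in wt and at 68.6, 59.6 and 62.6 CPM in CG1603PBac libraries. All mutant libraries were more than 2-fold above all wt libraries. The log2 fold change was 1.29 (SE 0.10, adjusted p = 1.47e-10 from edgeR), and it was 1.25 with the trend on exon length removed and 1.68 with library totals.

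Hml was higher with TMM and with library totals, but not with the trend on exon length removed. It encodes Hemolectin, a very large secreted protein with domains like those of von Willebrand factor, needed for clotting of the hemolymph, and its promoter is widely used to label hemocytes. Hml (chromosome 3L, 13846054 to 13860001) was at 96.8, 97.0 and 99.5 CPM in wt and at 136, 134 and 126 CPM in CG1603PBac libraries. The genotypes did not overlap, and the log2 fold change was 0.43 (SE 0.06, adjusted p = 1.60e-06 from edgeR). It was 0.83 with library totals (adjusted p = 2.34e-10 from edgeR). Hml has 11756 bases of exon, and tested genes with 3337 or more bases of exon (2797 genes) had a median log2 fold change of 0.42, against −0.21 for those with at most 1188 bases (2801 genes). When the trend of the log2 fold change on exon length was removed, the value for Hml became −0.29, so the direction of Hml relative to genes of its own length is the opposite.

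Pxn was lower. Peroxidasin is a heme peroxidase that is secreted into basement membranes and crosslinks collagen IV, and the gene is used as a plasmatocyte marker. Pxn (chromosome 3L, 2601455 to 2630064) was at 42.7, 54.6 and 44.9 CPM in wt and at 29.8, 29.7 and 30.3 CPM in CG1603PBac libraries. The mutant libraries were nearly alike, and the lowest wt library was above all of them. The log2 fold change was −0.66 (SE 0.11, adjusted p = 1.02e-05 from edgeR). It was −0.27 with library totals (adjusted p = 0.0296), and −1.09 with the length trend removed.

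The remaining plasmatocyte genes, crq, He and eater, did not pass. crq encodes Croquemort, the CD36-like receptor for dying cells, and lies on chromosome 2L from 448254 to 453024, where 15.7% of its exon sequence also belongs to ex, which runs the other way. crq was at 86.9, 85.7 and 94.2 CPM in wt and at 99.7, 99.6 and 95.9 CPM in CG1603PBac libraries. These values did not overlap, but the gap between the highest wt and the lowest mutant library was small. Its log2 fold change was 0.15 (95% interval 0.01 to 0.28, adjusted p = 0.0532 from edgeR). crq passed as higher at 0.54 with library totals (adjusted p = 5.88e-07), at 0.18 with at least 10 counts in every library (adjusted p = 0.0165), at 0.15 in limma-voom (adjusted p = 0.0482) and at 0.17 without wt replicate 3 (adjusted p = 0.0268). All alternatives gave crq a positive value.

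He encodes Hemese, a transmembrane glycoprotein found on all larval hemocytes, and the gene lies on chromosome 2L from 13972096 to 13972947. He was at 6.74, 6.18 and 6.11 CPM in wt and at 4.89, 5.23 and 3.14 CPM in CG1603PBac libraries. All mutant libraries were below all wt libraries, and they were further apart from each other. The log2 fold change of He was −0.52 (95% interval −1.07 to 0.02, adjusted p = 0.0826 from edgeR). Among the alternatives He passed only in limma-voom, at −0.59 (adjusted p = 0.0440). With library totals He was at −0.13 (adjusted p = 0.672 from edgeR). Without CG1603PBac replicate 3 it was at −0.32 (adjusted p = 0.345 from edgeR). Eater, another Nimrod receptor with many EGF-like repeats, binds bacteria and holds hemocytes at their resting sites (chromosome 3R, 27095867 to 27099679). It had the fewest reads of the plasmatocyte genes, with 70, 76 and 95 counts in wt against 46, 70 and 76 in the mutant. Its log2 fold change was −0.63 (95% interval −1.53 to 0.27, adjusted p = 0.201 from edgeR), so both a fall of more than 2-fold and a small rise of eater are inside the interval.

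**Figure D2:**
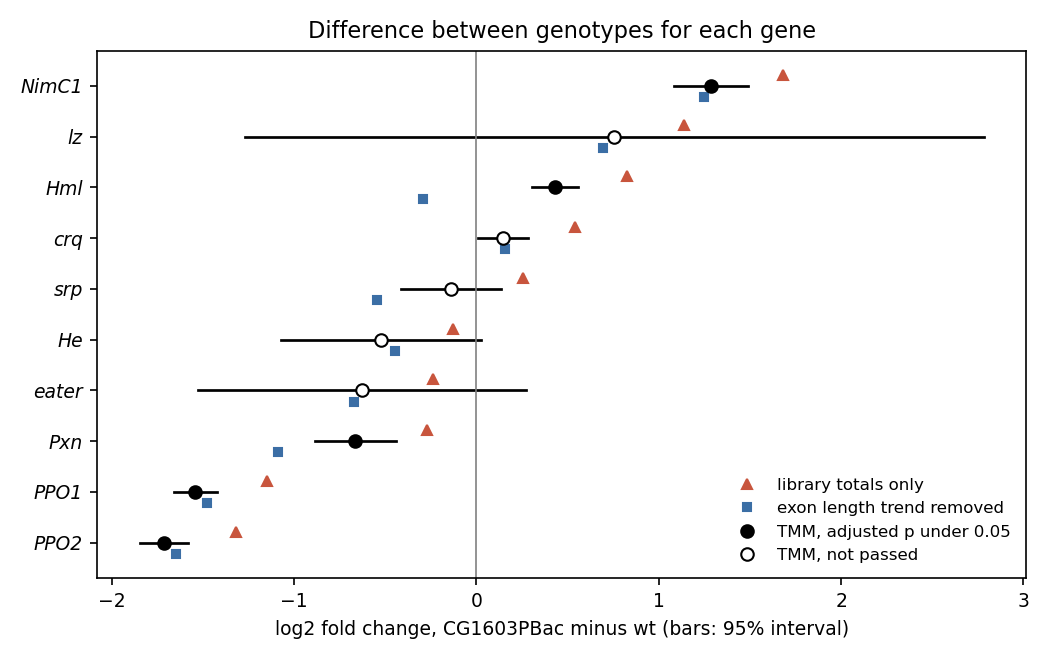
Log2 fold change of CG1603PBac minus wt for the 10 genes. Circles with bars are the TMM values with 95% intervals (filled where the adjusted p is under 0.05), triangles use library totals only, and squares have the trend on exon length removed. PPO1, PPO2 and Pxn lie below 0 and NimC1 above 0 in all these scalings, while Hml turns to −0.29 with the length trend removed and srp to 0.26 with library totals.

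The order of the levels differed between the genotypes. Levels of different genes were compared as CPM per kb of exon. This does not remove the trend of the log2 fold change on exon length. The 10 genes range from 673 bases of exon (He) to 11756 (Hml). With that trend removed the log2 fold changes were −0.45 for He and −0.29 for Hml. The part of the trend in the order was not tested. In wt larvae PPO2 was highest at 128 ± 8.64 CPM per kb, followed by PPO1 at 102 ± 2.25, crq at 31.2 ± 1.61 and He at 9.43 ± 0.510 CPM per kb (SD, n = 3). Hml (8.31 ± 0.127 CPM per kb), Pxn (7.96 ± 1.06) and NimC1 (7.92 ± 0.671) came next, and in that order neighbouring genes overlapped in their libraries (SD, n = 3). srp (3.52 ± 0.0192 CPM per kb), eater (0.824 ± 0.136) and lz (0.0779 ± 0.0348) had the lowest levels (SD, n = 3).

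In CG1603PBac larvae PPO1 (34.9 ± 1.84 CPM per kb) was at the level of crq (34.6 ± 0.770), and their libraries overlapped (SD, n = 3). PPO2 (38.9 ± 2.89 CPM per kb; SD, n = 3) had come down too, but all its libraries stayed above those of PPO1 and crq. NimC1 moved from place 7 to place 4, at 19.3 ± 1.40 CPM per kb, above Hml at 11.2 ± 0.481 (SD, n = 3). He (6.57 ± 1.67 CPM per kb) and Pxn (5.03 ± 0.0565) overlapped, and srp, eater and lz stayed at places 8, 9 and 10.

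Ratios of counts within a library need no scaling between libraries, but they do not remove the trend on exon length. The ratios named here were chosen after the values had been seen. The ratio of PPO1 to Hml counts was 2.39, 2.47 and 2.43 in wt against 0.611, 0.572 and 0.675 in the mutant, a 3.93-fold decrease, which became 2.27-fold with the trend on exon length removed from both genes. The ratio of PPO1 to crq fell 3.22-fold, from 2.67 ± 0.116 to 0.830 ± 0.0574 (SD, n = 3), or 3.11-fold with the trend removed. In contrast, the ratio of PPO1 to PPO2 was 0.770, 0.788 and 0.900 in wt and 0.975, 0.797 and 1.01 in the mutant. These overlapped (exact permutation test, two-sided, p = 0.20).

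Within the plasmatocyte genes the ratios shifted too. NimC1 to Pxn was 0.669, 0.462 and 0.544 in wt against 2.30, 2.01 and 2.07 in the mutant, a 3.85-fold increase (5.03-fold with the length trend removed). NimC1 to Hml rose 1.81-fold, from 0.267 ± 0.0256 to 0.482 ± 0.0326, and Pxn to Hml fell 2.12-fold, from 0.485 ± 0.0673 to 0.227 ± 0.0124 (SD, n = 3). With the length trend removed, NimC1 to Hml rose 2.91-fold and Pxn to Hml fell 1.73-fold. Libraries of 3 against 3 cannot give an exact permutation p below 0.10, and the smallest value adjusted over the 45 pairs of genes was 0.129. Of these 45 pairs, 35 did not overlap between the genotypes. Over all pairs of tested genes with a count in every library, 71.6% did not overlap, so this number is near that of genes at large.

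**Figure D3:**
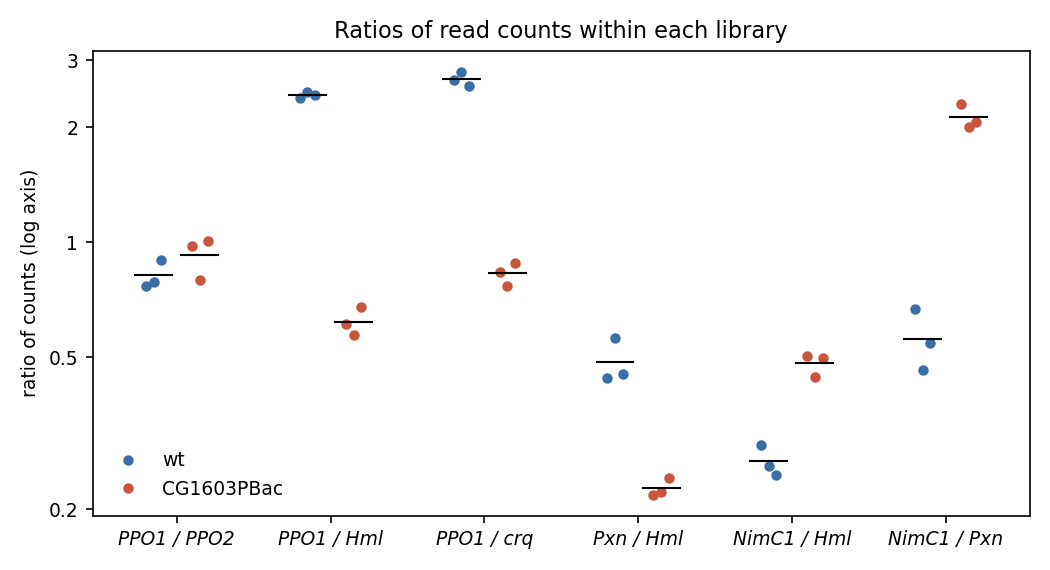
Ratios of read counts within each library, on a log axis, for pairs of hemocyte genes. Points are libraries (blue wt, red CG1603PBac) and bars are means of 3 libraries. PPO1 falls against Hml (2.43 to 0.620 in the means) and against crq, whereas PPO1 against PPO2 overlaps between the genotypes.

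He and NimC1 are direct neighbours in the Nimrod gene cluster of chromosome 2L. The 11 genes from NimA to NimC4, He among them, span 91.3 kb, from 13957539 to 14048863. The gap between He and NimC1 is 210 bp and both are on the minus strand. The ratio of NimC1 to He counts was 4.24, 4.08 and 3.99 in wt against 14.0, 11.4 and 19.97 in the mutant. These did not overlap (exact permutation test, two-sided, p = 0.10, the smallest possible), as for 71.6% of all pairs of tested genes with a count in every library. The rise was 3.59-fold, or 3.23-fold with the length trend removed, and He itself did not pass the test. He also shares 11.6% of its exons with NimB5 on the opposite strand, and whether counting used the strand is not given in the sources used here.

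For the lists of related genes that follow, the background is 34.8% of all tested genes called higher and 34.9% called lower. The wider Nimrod family and the scavenger receptors held calls in both directions. Of 11 tested genes among 14 phagocytic receptors beyond the 10 genes, 5 were higher, 3 were lower and 3 did not pass, and the median log2 fold change was 0.15 (0.06 over all genes). With library totals 7 were higher and 1 was lower, and the median was 0.54. NimB4, a secreted protein that takes part in the clearance of dying cells, rose from 19.8 ± 1.66 to 52.2 ± 0.701 CPM (SD, n = 3), with a log2 difference of 1.40. Sr-CIV, a class C scavenger receptor gene, rose from 4.14 ± 1.21 to 16.3 ± 1.19 CPM (SD, n = 3), or 1.98. NimB3 fell from 6.89 ± 1.08 to 1.60 ± 0.470 CPM (SD, n = 3), or −2.11 (adjusted p = 4.04e-06 from edgeR).

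NimB2 passed narrowly at −0.10 (adjusted p = 0.0406 from edgeR), with 329 ± 3.93 and 306 ± 1.83 CPM (SD, n = 3). With library totals it passed as higher, at 0.29 (adjusted p = 3.62e-06 from edgeR), so no direction is given for NimB2. Its call as lower was also lost with either other filter (adjusted p = 0.0766 and 0.183 from edgeR). The same held without wt replicate 2 (−0.10) and without CG1603PBac replicate 1 (−0.10), 2 (−0.10) or 3 (−0.11). The 4 named genes lie on chromosome 2L, and the 3 of the NimB group in the cluster described above.

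Genes related to crq were next. Of 12 tested CD36-like receptor genes, 7 were higher, 2 lower and 3 did not pass, against 34.8% higher and 34.9% lower over all genes. Their median log2 fold change was 0.39, or 0.17 with the length trend removed and 0.78 with library totals. The gene dsb, listed as CG1887, rose from 6.53 ± 1.40 to 23.3 ± 2.74 CPM, and Snmp2, a sensory neuron membrane protein gene, from 10.5 ± 3.33 to 36.0 ± 3.16 CPM (SD, n = 3). Their log2 fold changes were 1.83 and 1.78. CG2736 fell from 181 ± 15.4 to 78.8 ± 3.00 CPM (SD, n = 3), with a log2 difference of −1.19. ninaD, a receptor gene for carotenoid uptake, had 169, 187 and 248 counts in wt but only 2, 4 and 1 counts in CG1603PBac libraries. A fold for ninaD would rest on those few reads.

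Genes related to srp and lz also held calls in both directions. Of 8 tested GATA and RUNX factor genes and cofactors, 4 were higher, 1 was lower and 3 did not pass, and the median log2 fold change was 0.54 (0.44 with the length trend removed). Over all genes 34.8% were higher. The GATA factor genes grn (7.78 ± 2.87 to 16.6 ± 1.78 CPM) and GATAd (20.2 ± 2.75 to 41.8 ± 2.03 CPM) rose, with log2 fold changes of 1.09 and 1.05 (SD, n = 3). GATAe, the GATA factor gene of the midgut, fell from 51.3 ± 4.16 to 36.4 ± 2.25 CPM (SD, n = 3), or −0.50, a call lost with library totals (−0.11, adjusted p = 0.347).

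Signals that act on hemocytes included large rises. Of 16 tested regulators and signals of hematopoiesis, 9 were higher, 2 lower and 5 did not pass, against 34.8% higher and 34.9% lower over all genes. The median log2 fold change was 0.62, but 0.24 with the length trend removed and 1.02 with library totals, where 11 were higher and 0 lower. Both listed ligand genes of the JAK/STAT pathway, upd2 and upd3, were among them. upd3, a cytokine gene that hemocytes and other tissues switch on under stress, had 42, 8 and 32 counts in wt against 461, 393 and 490 in the mutant. upd2, the other listed ligand gene, had 7, 15 and 3 counts in wt against 259, 246 and 331 in the mutant. Every mutant library was far above every wt library for both genes. The log2 fold changes were 3.76 (SE 0.36, adjusted p = 7.20e-09) for upd3 and 4.75 (SE 0.42, adjusted p = 2.01e-09) for upd2 in edgeR. The value for upd2 rests on few wt reads and was 5.49 without wt replicate 2.

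The calls for the kinase and the transcription factor of that pathway depended on scaling and on single libraries. hop, the Janus kinase gene, was at 15.2, 15.3 and 14.5 CPM in wt and at 11.9, 10.8 and 11.0 CPM in the mutant, a log2 fold change of −0.42 (adjusted p = 0.0223 from edgeR). hop no longer passed with library totals (−0.02), without CG1603PBac replicate 2 (−0.39) and without CG1603PBac replicate 3 (−0.40). Stat92E was at 149 ± 22.2 and 127 ± 5.29 CPM (SD, n = 3), or −0.22, and was at 0.17 with library totals. Its call was lost without wt replicate 3 (−0.14), CG1603PBac replicate 1 (−0.21) or CG1603PBac replicate 3 (−0.20).

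Most other genes of melanization were not lower. Of 11 tested genes of the melanization cascade, 8 were higher, 1 was lower and 2 did not pass, against 34.8% higher and 34.9% lower over all genes. The median log2 fold change was 0.46, and with library totals it was 0.86, with 8 higher and 0 lower. Ddc, the dopa decarboxylase gene that makes dopamine for cuticle and melanin, rose from 35.2 ± 8.69 to 178 ± 1.84 CPM (SD, n = 3), or 2.34 on the log2 scale. yellow-f, which encodes a dopachrome conversion enzyme, rose from 10.6 ± 1.78 to 35.7 ± 3.84 CPM (SD, n = 3), or 1.75. Its relative yellow-f2 went from 41.9 ± 3.26 to 33.4 ± 2.39 CPM (SD, n = 3), or −0.33, and to 0.06 with library totals. Ddc and yellow-f are also active in the epidermis, which whole larvae include.

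Of the 5 lamellocyte markers, all tested, 4 were higher and 1 was lower, with a median log2 fold change of 0.77 (34.8% of all genes were higher). With the length trend removed the median was 0.26, and 2 of the 5 values were below 0. atilla, which encodes a surface protein of lamellocytes recognized by the L1 antibody, rose from 94.9 ± 3.79 to 276 ± 9.62 CPM (SD, n = 3), with a log2 difference of 1.54 (adjusted p = 3.19e-16 from edgeR). The integrin gene ItgaPS4, listed as ItgalphaPS4, had 6, 12 and 5 counts in wt and 125, 127 and 102 counts in CG1603PBac libraries, a log2 fold change of 3.66 (adjusted p = 1.25e-05 from edgeR). cher, the filamin gene, fell from 741 ± 8.11 to 241 ± 5.95 CPM (SD, n = 3), or −1.62. Filamin is also abundant in muscle and other tissues. The cells from which the reads of atilla and ItgaPS4 came were not tested either. In wt, atilla was already far above He (6.34 ± 0.343 CPM, SD, n = 3), a gene of all larval hemocytes.

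Secreted proteins of the hemolymph were split. Of 9 tested clotting and complement-like genes, 5 were lower, 3 higher and 1 did not pass, against 34.9% lower over all genes. The median log2 fold change was −0.52, or −0.12 with library totals and −0.80 with the length trend removed. fon, the clotting protein Fondue, fell from 601 ± 35.7 to 169 ± 5.67 CPM (SD, n = 3), or −1.83 (SE 0.05). Tg, the transglutaminase that crosslinks clots, rose from 55.7 ± 5.28 to 133 ± 7.75 CPM (SD, n = 3), or 1.25 (SE 0.08). lectin-24A had 101, 152 and 124 counts in wt and 0, 10 and 2 counts in CG1603PBac libraries.

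Tep1, a thioester protein gene, had 7, 32 and 32 counts in wt against 78, 79 and 95 in the mutant, with a log2 fold change of 1.53 (adjusted p = 0.0297 from edgeR). The call of Tep1 was lost without wt replicate 1 (1.09) and without CG1603PBac replicate 1 (1.48), 2 (1.58) or 3 (1.54).

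Pxn was compared with its enzyme relatives and with its partners in the matrix. Of 6 tested heme peroxidase genes, 4 were higher and 2 lower, against 34.8% higher and 34.9% lower over all genes. The median log2 fold change was 0.60, or 0.26 with the length trend removed and 0.99 with library totals. Irc, an immune-regulated catalase gene, rose from 56.8 ± 2.61 to 131 ± 3.52 CPM (SD, n = 3), or 1.20, while CG42331 fell by 0.89 and CG5873 (cysu) by 0.62 on the log2 scale. Pxd, from 3.40 ± 1.48 to 6.06 ± 1.76 CPM (SD, n = 3), passed at 0.83 but not without wt replicate 3 (0.49), CG1603PBac replicate 1 (0.60) or CG1603PBac replicate 3 (0.85). All 8 basement membrane genes were lower with TMM, with a median of −1.14 (34.9% of all genes tested were lower), and 7 were lower with library totals, where Ppn (papilin) went from −0.17 to 0.23. Among them vkg, a collagen IV chain, fell from 660 ± 36.1 to 247 ± 4.69 CPM and LanB1, a laminin chain, from 198 ± 3.13 to 69.5 ± 2.52 CPM (SD, n = 3), with log2 fold changes of −1.42 and −1.51.

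Over the 9 lists together, 86 of 96 genes were tested, of which 44 were higher, 25 lower and 17 did not pass, so 80.2% passed, against 69.7% of all genes. With library totals 53 were higher and 18 lower.

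**Figure D4:**
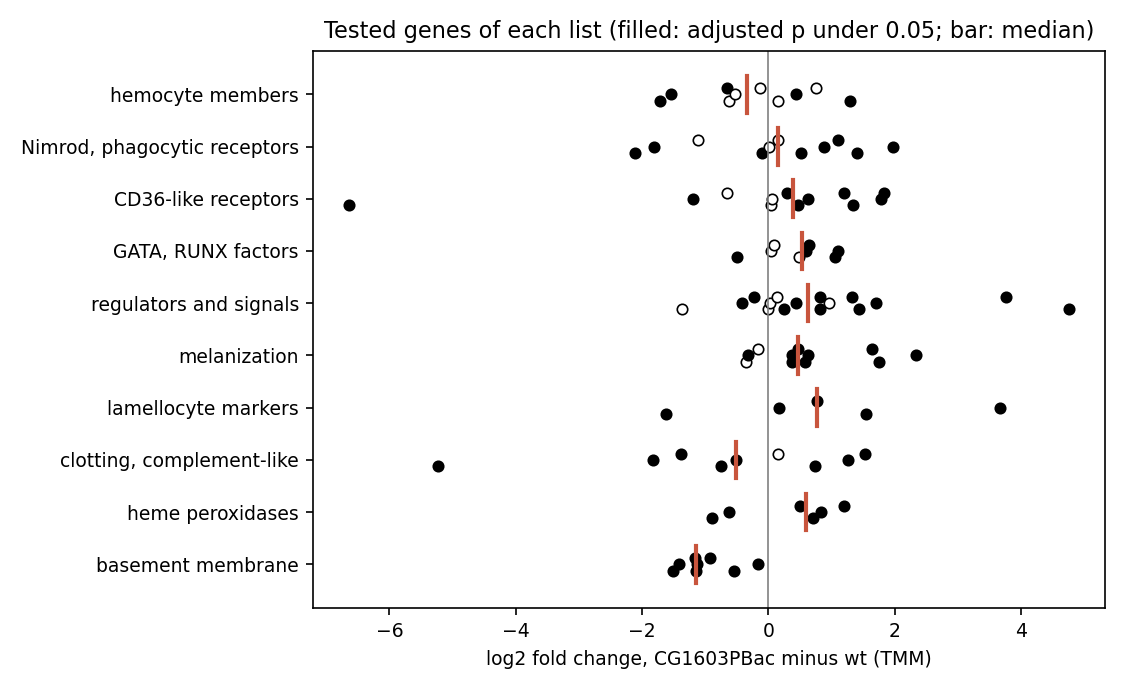
Log2 fold change (CG1603PBac minus wt, TMM) of every tested gene in the 10 hemocyte genes and in the 9 further lists. Each circle is a gene, filled where the adjusted p is under 0.05, and red bars are list medians. The basement membrane genes all lie below 0 (median −1.14, with Ppn above 0 when library totals are used). The lamellocyte, GATA and RUNX, signal and heme peroxidase lists have medians from 0.54 to 0.77 here. With the trend on exon length removed these are from 0.24 to 0.44. Medians of the melanization (0.46), CD36-like (0.39) and Nimrod (0.15) lists are above 0 too.

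Markers of other tissues of the larva moved with the genotype as well. All 6 muscle genes were lower (5 with library totals, where sls went from −0.09 to 0.30), with a summed level from 24407 to 25410 CPM in wt and from 10053 to 10312 CPM in the mutant. All 6 neuronal genes were higher (34.8% over all genes), with a median log2 fold change of 1.67, or 1.04 with the length trend removed, from 247 to 288 CPM summed in wt and from 795 to 825 CPM in CG1603PBac libraries. Of the others, 1 of 4 tested fat body genes was lower and 1 higher (Fbp1 is at 0 in every library). Lsp2, Lsp1alpha and Fbp2 had means of at most 1.95 CPM, so the fat body calls rest on FASN1, listed as CG3523 (lower), and Lpin (higher). Further, 2 of 5 midgut genes were lower and 1 higher, 1 of 5 glial genes lower and 2 higher, and 1 of 4 tracheal genes lower and 1 higher. The summed level of the 6 plasmatocyte genes was 264 to 272 CPM in wt and 319 to 341 CPM in CG1603PBac libraries. That sum does not describe the 6 as a class, since NimC1 and Hml were higher, Pxn was lower and 3 did not pass. Hml also turned to −0.29 with the length trend removed. The phenoloxidase genes summed to 509 to 543 CPM in wt and 169 to 173 CPM in CG1603PBac libraries. The part of tissue composition in the changes of the hemocyte genes was not tested.

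Across the 6 libraries, stumps, CG17224 and Cypl had profiles most like the mean of the 6 genes with negative log2 fold changes (PPO1, PPO2, Pxn, He, eater and srp), with Pearson r of 0.9985, 0.997 and 0.996. The libraries fall into 2 clusters by genotype, so the likeness is a description only. Of 8913 genes compared, 1600 had r above 0.95, so the profile is a common one.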

How the data were processed

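The authors aligned paired reads of poly(A) libraries to the fly genome (dm6) with STAR after FastQC, and assigned them to genes with HTSeq. The annotation version and the strand setting are not given in the sources used here. The deposited values are raw counts per gene, neither normalized nor pooled. HTSeq categories that name no gene (20.2 to 21.0% of reads in wt and 44.85 to 45.5% in CG1603PBac libraries) entered neither library sizes nor tests. Of 16727 genes, 16508 matched the Ensembl annotation in dm6 coordinates, which gave positions, exon lengths and overlaps.

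Counts were scaled by TMM, filtered by filterByExpr (minimum count 10, minimum total 15) and tested with edgeR 4.0.16 (quasi-likelihood F test, robust, R 4.3.3), on 3 wt against 3 CG1603PBac libraries. Benjamini-Hochberg adjustment covered all 11306 tested genes, and 0.05 was the threshold. The SE is the log2 fold change divided by the square root of F. Labels call the samples biological replicates without naming separate cultures, and p-values measure the spread between these libraries. Pairs of replicates differed by more than sampling noise (mean chi-square per gene from 7.46 to 17.0), so all 6 were used, and totals limit precision by counting error only. The steps were run on simulated data. That run checks the code only, and does not test the TMM scaling or the trend on exon length in these libraries.

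Alternatives tried were limma-voom (limma 3.58.1), DESeq2 1.42.0, its size factors, library totals, other filters, a replicate block, each library left out, and removal of the loess trend on exon length (span 0.5). The 10 genes, the lists and the tests were chosen with earlier results of these data known. Besides the 10 genes and CG1603, the text names the 2 lowest and 2 highest called genes of each list (mean of at least 1 CPM) and the 3 genes of most similar profile (mean of at least 5 CPM, log2 of CPM plus 0.5). Ppn, sls, the fat body markers and the genes in the last section with too few reads were named after their values had been seen.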

Additional observations from a re-analysis of the deposited data

How the results depend on the processing

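The calls of PPO1, PPO2, Pxn, NimC1 and Hml held in DESeq2, limma-voom, both filters, both other scalings, the replicate block and without any single library. Hemocyte genes called lower numbered 3 under all of these but limma-voom (4), and those called higher 2 or 3. Genes of the further lists numbered 20 to 25 lower and 38 to 44 higher without single libraries. With the trend on exon length removed Hml was at −0.29, and with library totals srp was at 0.26, NimB2 at 0.29, Stat92E at 0.17 and yellow-f2 at 0.0645. Library totals differ from TMM by construction, and the cause of the length trend was not tested. With the replicate block the values were −1.54 for PPO1, −1.71 for PPO2, −0.66 for Pxn, 1.29 for NimC1 and 0.43 for Hml, and 3 hemocyte genes were lower and 2 higher. NimB2 lost its call (adjusted p = 0.0589), and the number of genes called among all tested was 7741 against 7882. Deviations of libraries with the same replicate number correlated at 0.0152, −0.0156 and 0.00691, so no pairing by number was seen in the levels. This cannot show whether samples were collected or prepared in matched sets. The few reads of lz and eater limit what can be said of them, and lz could not be fitted with at least 10 counts in every library.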

Other observations

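Of the genes in the further lists, 10 had too few reads to be tested. PPO3, the prophenoloxidase gene of lamellocytes, had 7, 0 and 7 counts in wt and 29, 12 and 5 counts in the mutant, so these overlapped. NimC2 had no count in any wt library and 2, 7 and 19 counts in CG1603PBac libraries. NimC4, the receptor gene simu of glia and embryonic macrophages, had none in wt and 10, 1 and 11 counts in the mutant. A count of 0 in 1 library allows an expected count of up to 3, and the lowest mutant libraries of NimC2 and NimC4 are below that. The bound does not use that all 3 wt libraries were at 0, and neither gene was tested, so no direction is given. RunxA, a paralog of lz, had 8, 0 and 0 counts in wt and 6, 9 and 26 counts in the mutant.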
